A study of Mus musculus with 4 samples.

Results

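The genes described here encode proteins that hepatocytes, the main cells of the liver, secrete into plasma, together with the urea cycle enzyme Cps1. They were read in arrays of mouse fat. They were chosen by name, as 37 liver genes, with earlier results of these data known. A gene counted as measured where a probe carried its symbol alone. That held for 35 of the 37, of 22180 genes in all, and each of the 35 had 1 such probe. Transferrin (Trf) and Apoc4 lie on probes that carry several symbols and have no value here.

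The tissue was epigonadal white fat, a visceral pad that lies against the testis and epididymis, from fasted male mice. There were 4 groups with 1 array each. LTKO mice carried floxed Irs1, Irs2 and FoxO1 together with Albumin-Cre, and their control, the Irs1/2:FoxO1-flox control, carried the same floxed genes without Cre. LDKO mice carried floxed Irs1 and Irs2 with Albumin-Cre, and their control was the Irs1/2-flox control without Cre. LDKO and LTKO mice were 4 months old, while the labels state no age for the controls and do not say whether an array held RNA of 1 animal or of several. The albumin promoter is used for Cre expression in hepatocytes, and recombination in the fat itself was not tested.

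Values are log2 signals, a difference of 1 is 2-fold, and every difference is given as the Cre line minus its control unless stated. With 1 array per group there is no replicate error, standard error or p-value, and the spread between arrays of different groups is the only gauge of how far a value can move. A higher level of one gene than of another was not read as a result, since each probe has its own brightness. The mean of a gene served only to choose genes and probes and to class genes against the median gene. Signals summed over a list depend most on its brightest probes. The LTKO array stood apart from the other 3 in markers of neighbouring tissues: over 14 epididymis markers the linear signals summed to 850 in LTKO, 218 in its control, 232 in LDKO and 226 in the Irs1/2-flox control. All results on LTKO rest on that array, while the LDKO comparison and the comparison of the controls do not use it. In whole tissue, more cells of a type and more RNA per cell cannot be told apart.

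Hepatocytes release most proteins of blood plasma: albumin and other carriers, the apolipoproteins of circulating lipid particles, the clotting factors, and proteins of complement and of protease inhibition. Their genes depend in liver on a small set of transcription factors that includes the HNF1, HNF4, C/EBP and forkhead families. White fat is not a main source of most of them, although macrophages and adipocytes transcribe a few, such as Apoc1 and Azgp1.

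Plasma protein genes exceeded the Irs1/2:FoxO1-flox control in LTKO fat at 34 of 35 members, against 45.6% of all genes. The LTKO array was the highest of the 4 at 28 of 35, against 21.7% of all genes. Albumin (Alb), the fetuin Ahsg, the major urinary protein gene Mup3 and apolipoprotein Apob were at least 3-fold higher, which 0.379% of all genes were. Cps1, Apoa1, Fgb and Apoh were at least 2-fold higher, which made 8 of 35, against 1.13% of all genes. No member was 2-fold lower in LTKO, against 0.0361% of all genes. In LDKO fat no member was 2-fold higher or lower than in its control, against 0.334% and 0.356% of all genes. The LTKO difference was unequal between some neighbouring genes, such as Apoa1 and Apoc3 or Fgb and Fga.

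The promoters of 6 members are given first, chosen because they include the 3 members with the largest LTKO difference, the weakest of the 8 that were 2-fold higher (Apoh), and the neighbouring fibrinogen genes Fgb and Fga, of which the first was 2-fold higher and the second was not. Each is the 250 bases before the gene's start, on the gene's strand, from RefSeq on GRCm38.p6. Capitals mark the letters searched on both strands: GTTAAT, one arm of the palindrome that HNF1 binds, TTGCNNAA, a core of sites of the C/EBP family, and TGTTTAC, a core of forkhead sites, the family of FoxO1.
Alb (chr5:90460620-90460869, plus strand): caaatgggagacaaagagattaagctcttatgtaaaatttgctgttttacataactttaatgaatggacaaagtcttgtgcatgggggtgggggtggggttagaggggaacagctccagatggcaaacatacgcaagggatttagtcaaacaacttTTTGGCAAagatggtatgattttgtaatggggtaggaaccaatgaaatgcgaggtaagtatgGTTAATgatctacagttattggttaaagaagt
Ahsg (chr16:22891765-22892014, plus strand): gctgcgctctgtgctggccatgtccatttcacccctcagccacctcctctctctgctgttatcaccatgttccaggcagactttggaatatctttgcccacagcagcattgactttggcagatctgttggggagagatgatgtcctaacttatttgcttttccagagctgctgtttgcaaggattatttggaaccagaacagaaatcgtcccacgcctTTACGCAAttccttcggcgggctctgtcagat
Mup3 (chr4:62087318-62087567, minus strand): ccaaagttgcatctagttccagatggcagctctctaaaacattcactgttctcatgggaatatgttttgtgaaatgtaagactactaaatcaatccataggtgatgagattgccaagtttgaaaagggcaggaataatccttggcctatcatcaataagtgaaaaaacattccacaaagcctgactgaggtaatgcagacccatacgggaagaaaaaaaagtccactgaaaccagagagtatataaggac
Apoh (chr11:108395047-108395296, plus strand): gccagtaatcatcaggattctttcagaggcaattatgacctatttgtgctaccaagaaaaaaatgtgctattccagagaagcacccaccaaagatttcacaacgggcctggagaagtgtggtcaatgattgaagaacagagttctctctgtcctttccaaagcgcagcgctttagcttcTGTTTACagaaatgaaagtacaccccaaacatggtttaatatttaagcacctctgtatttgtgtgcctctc
Fgb (chr3:83049864-83050113, minus strand): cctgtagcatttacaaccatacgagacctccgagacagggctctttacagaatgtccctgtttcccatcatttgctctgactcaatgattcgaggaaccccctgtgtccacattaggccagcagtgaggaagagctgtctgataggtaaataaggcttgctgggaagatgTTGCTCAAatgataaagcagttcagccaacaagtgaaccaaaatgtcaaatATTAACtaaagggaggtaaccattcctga
Fga (chr3:83025903-83026152, plus strand): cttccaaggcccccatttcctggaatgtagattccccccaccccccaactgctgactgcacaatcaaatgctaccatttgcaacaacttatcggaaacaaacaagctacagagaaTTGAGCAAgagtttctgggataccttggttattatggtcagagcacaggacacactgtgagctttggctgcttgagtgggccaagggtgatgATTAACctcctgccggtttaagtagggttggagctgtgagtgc

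Alb held GTTAAT 32 bases and a C/EBP core 94 bases before the start, counted to the first base of the match. Fgb and Fga each held both as well, Fgb at 29 and 80 bases and Fga at 43 and 135 bases, so these letters did not separate the pair. Ahsg held a C/EBP core at 32 bases, Apoh a forkhead core at 71 bases, and Mup3 none of the 3. RefSeq promoters were matched for 28 of the 35 measured members, with 31 promoters among them. The C/EBP core was in 35.5% of these promoters and in 9.56% of all 32851, GTTAAT in 22.6% and 6.43%, and TGTTTAC in 9.68% and 3.17%. The C/EBP core was present at 4 of 7 genes that were 2-fold higher in LTKO and at 7 of the 21 others, GTTAAT at 2 of 7 and 5 of 21, and TGTTTAC at 1 of 7 and 2 of 21. A match is a description of the letters in this window.

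Among the carriers, Alb, the most abundant protein of plasma, was 9.82 in LTKO, 6.93 in the Irs1/2:FoxO1-flox control, 7.70 in LDKO and 7.10 in the Irs1/2-flox control. The LTKO value thus stood 2.89 above its control, a 7.41-fold difference, and 2.12 above LDKO, the next highest array. LDKO was 0.60 above its own control. Mup3, a lipocalin that carries small volatile molecules into urine, was 6.37 in LTKO, 3.99 in its control, 4.01 in LDKO and 3.51 in the Irs1/2-flox control, which placed LTKO 2.39 above its control and the other 3 arrays within a range of 0.51. The Mup genes are near-identical copies, with 22 in the annotation, so this probe's signal may include other copies. Of the 4 further Mup genes with a probe of their own symbol, Mup20 differed by 0.60 in LTKO and Mup5, Mup6 and Mup21 by 0.06, 0.12 and −0.06.

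The other carriers differed less. The heme carrier hemopexin (Hpx) was 5.51 in LTKO and 4.68 in its control, against 4.76 in LDKO and 4.62 in its control. The thyroxine and retinol carrier transthyretin (Ttr) differed by 0.75 in LTKO, Ambp, the precursor of alpha-1-microglobulin and bikunin, by 0.61 and zinc-alpha-2-glycoprotein (Azgp1), which adipocytes also make, by 0.40. In LDKO these 4 lay between −0.13 and 0.14 of their control. LTKO was the highest array for all 6 carriers, against 21.7% of all genes.

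**Figure D1:**
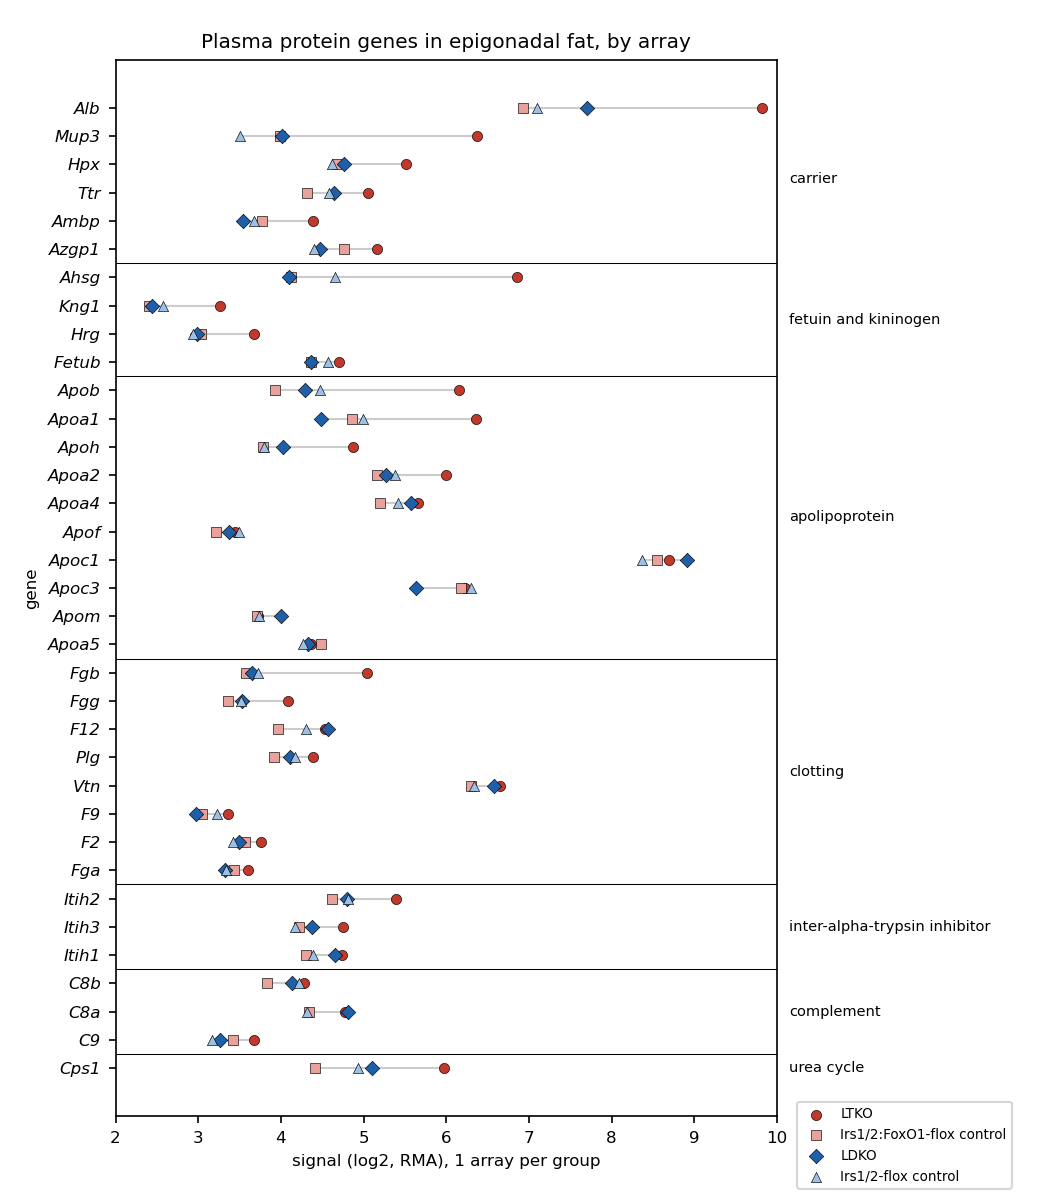
Log2 signal of the 35 measured genes on the x axis, 1 row per gene, grouped by the role of the protein and sorted within a group by the LTKO difference. Each point is 1 array, and the grey line spans the 4 arrays. LTKO lies apart to the right for Alb, Mup3, Ahsg, Apob, Apoa1, Fgb, Cps1 and Apoh. The other 3 arrays lie within 1 log2 unit of each other in every row, and the share of all genes that do was not counted.

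The plot of signals by array gives the levels behind the differences. At all 35 members the LDKO array and both controls lay within 1 log2 unit of each other. Few genes of the whole set were 2-fold apart between LDKO and its control, 0.334% higher and 0.356% lower. Between the controls the shares were 0.149% and 0.334%. The share of all genes within 1 log2 unit across these 3 arrays was not counted. At 21 of 35 members LTKO exceeded the highest of these 3 by more than their whole range, against 6.42% of all genes, and the 8 members that were 2-fold higher were all among them. LTKO was at least 1.5-fold above every other array at 13 members, against 1.32% of all genes, and at least 2-fold above at 6 members, Mup3, Ahsg, Alb, Apob, Apoa1 and Fgb, against 0.383% of all genes. LTKO was the highest array at 21.7% of all genes, and at 22.7% of those whose mean lay below the median gene, the class to which 28 of the 35 members belonged. Of these 28, LTKO was the highest array at 23, and 6 were 2-fold above the LTKO control, against 1.26% of such genes. No member had its lowest value in LTKO, while the Irs1/2:FoxO1-flox control was the lowest array at 18 of the 35. The shares of all genes lowest in either array were not counted.

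The fetuin and kininogen group consists of cystatin-related plasma proteins. Ahsg, fetuin-A, a mineral-binding protein that also inhibits the insulin receptor, was 6.85 in LTKO, 4.13 in its control, 4.10 in LDKO and 4.66 in the Irs1/2-flox control. LTKO was 2.73 above its control and 2.19 above the highest of the other arrays, while LDKO lay 0.56 below its own control. Fetub, fetuin-B, an inhibitor of the egg protease ovastacin, was 4.71 in LTKO and 4.37 in its control, against 4.37 in LDKO and 4.57 in its control, so LTKO was barely above the rest. Kng1, the kininogen from which bradykinin is released, differed by 0.87 in LTKO, the largest difference that stayed under 2-fold, and the histidine-rich glycoprotein Hrg by 0.65.

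Apolipoproteins were split. Apob, the structural protein of very low density lipoprotein and chylomicrons, was 6.16 in LTKO, 3.93 in its control, 4.29 in LDKO and 4.47 in the Irs1/2-flox control, a difference of 2.22 in LTKO and of −0.18 in LDKO. Apoa1, the main protein of high density lipoprotein, was 6.36 in LTKO and 4.87 in its control, against 4.49 in LDKO and 4.996 in its control. It was 2.82-fold higher in LTKO and lay 0.51 below its control in LDKO. Apoh, which binds anionic phospholipids, was 4.88 in LTKO and 3.79 in its control, against 4.03 in LDKO and 3.79 in its control. These 3 were the apolipoproteins past 2-fold.

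Apoa2, the second protein of high density lipoprotein, followed with 5.99 in LTKO and 5.17 in its control, against 5.27 in LDKO and 5.38 in its control. Apoc3, an inhibitor of triglyceride clearance, was 6.23 in LTKO and 6.17 in its control, against 5.63 in LDKO and 6.30 in its control, so its one value that stood apart was the low LDKO one. Apoc1, an activator of cholesterol esterification that macrophages also make, was 8.69 in LTKO and 8.54 in its control, against 8.91 in LDKO and 8.36 in its control. Its highest array was LDKO, as it was for Apom, a carrier of sphingosine 1-phosphate, for the contact factor F12 and for C8a. Apoa4 was 5.66 in LTKO and 5.20 in its control, against 5.58 in LDKO and 5.42 in its control, and its LTKO and LDKO values were 0.08 apart. Apof differed by 0.23 in LTKO, and Apoa5, an activator of triglyceride clearance, by −0.12, the one negative LTKO difference among the members. LTKO was the highest array at 5 of the 10 measured apolipoproteins, against 21.7% of all genes.

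Among clotting proteins, fibrinogen is built from 3 chains, encoded by Fga, Fgb and Fgg, which hepatocytes assemble together. Fgb was 5.04 in LTKO, 3.58 in its control, 3.65 in LDKO and 3.72 in the Irs1/2-flox control, so LTKO was 1.46 above its control and the other 3 arrays were within 0.14. Fgg was 4.09 in LTKO and 3.36 in its control, against 3.53 in LDKO and 3.52 in its control. Fga was 3.60 in LTKO and 3.44 in its control, against 3.32 in LDKO and 3.33 in its control, a difference of 0.17 in LTKO. The chains thus differed by 1.46, 0.72 and 0.17.

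The coagulation factors differed less than Fgb and Fgg. Prothrombin (F2) differed by 0.19 in LTKO, factor IX (F9) by 0.32, factor XII (F12) by 0.57 and plasminogen (Plg), the precursor of the enzyme that dissolves fibrin, by 0.48. Vitronectin (Vtn), an adhesion protein, was 6.64 in LTKO and 6.30 in its control, against 6.58 in LDKO and 6.33 in its control. Its LTKO and LDKO values were 0.07 apart. In LDKO the 8 clotting genes lay between −0.26 and 0.26 of their control.

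Inter-alpha-trypsin inhibitors, whose heavy chains are joined to hyaluronan, differed by 0.76 (Itih2), 0.53 (Itih3) and 0.43 (Itih1) in LTKO, and by −0.003, 0.21 and 0.26 in LDKO. The terminal complement genes, whose products form the pore of the membrane attack complex, differed by 0.43 (C8a), 0.44 (C8b) and 0.25 (C9) in LTKO. C8a was 0.50 higher in LDKO as well. No gene of these groups was 2-fold higher. Cps1 differs from the rest, since its product stays in mitochondria, where it starts the urea cycle. It was 5.98 in LTKO and 4.42 in its control, against 5.11 in LDKO and 4.93 in its control. It was 1.56 higher in LTKO than in its control, which was the lowest of the 4 arrays, and LTKO was 0.87 above LDKO.

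**Figure D2:**
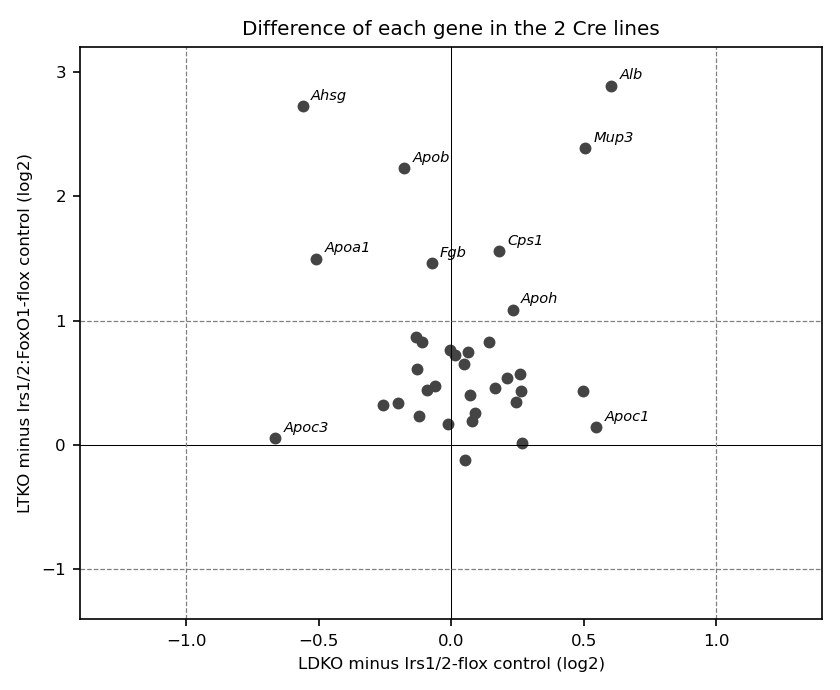
Difference of each of the 35 genes in LTKO (y axis, LTKO minus Irs1/2:FoxO1-flox control, log2) against that in LDKO (x axis, LDKO minus Irs1/2-flox control, log2), with dashed lines at 2-fold. The 8 genes above the upper dashed line have LDKO differences between −0.56 and 0.60, and no gene passes a dashed line along the x axis.

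Over all measured members the median difference was 0.53 in LTKO, while it was −0.02 over all genes. In LDKO the median was 0.05, while it was 0.001 over all genes, with 20 members higher and 15 lower. Between the arrays without Cre the median was −0.13, the floxed FoxO1 line minus the other, while it was 0.004 over all genes, and no member was 2-fold apart, against 0.149% of all genes higher and 0.334% lower. At 1.5-fold the LTKO count was 16 of 35, against 3.11% of all genes, and the LDKO count was 1, Alb, against 2.01%. LTKO minus LDKO had a median of 0.42, and 6 members were at least 2-fold higher and none as much lower, against 0.929% and 0.383% of all genes. At 1.5-fold there were 15, against 3.78%. The 6 were Ahsg, Mup3, Alb, Apoa1, Apob and Fgb, and this comparison shares the LTKO array with the one against its control.

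The LTKO and LDKO differences, which share no array, were plotted against each other. Across the 35 members Pearson's r was 0.01 and Spearman's rho was −0.05, while over all genes they were −0.02 and −0.01. The sign was the same at 54.3% of members and at 49.4% of all genes. These are descriptions across genes that share 4 arrays, and genes are not independent replicates. With the other floxed control in place of its own, LTKO was again 2-fold higher at 8 members, and all 8 were 2-fold above both controls, against 0.46% of all genes. LTKO was above both at 31 of the 35 members, against 29.7% of all genes.

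Several members lie near each other on a chromosome, and in LTKO some of these groups were unequal and others were not. On chromosome 9, where Apoa1, Apoc3, Apoa4 and Apoa5 follow each other, the LTKO differences were 1.498, 0.05, 0.45 and −0.12. On chromosome 16, in the order Ahsg, Fetub, Hrg and Kng1, they were 2.73, 0.34, 0.65 and 0.87. On chromosome 5, Alb differed by 2.89 and afamin (Afm), a vitamin E carrier of the same family, by −0.02, with 3.08 in LTKO and 3.10 in its control. On chromosome 14, Itih4, Itih3 and Itih1 differed by 0.10, 0.53 and 0.43, and on chromosome 4, C8b and C8a by 0.44 and 0.43. Probes of different genes can compress a difference to different degrees, most of all near the background.

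**Figure D3:**
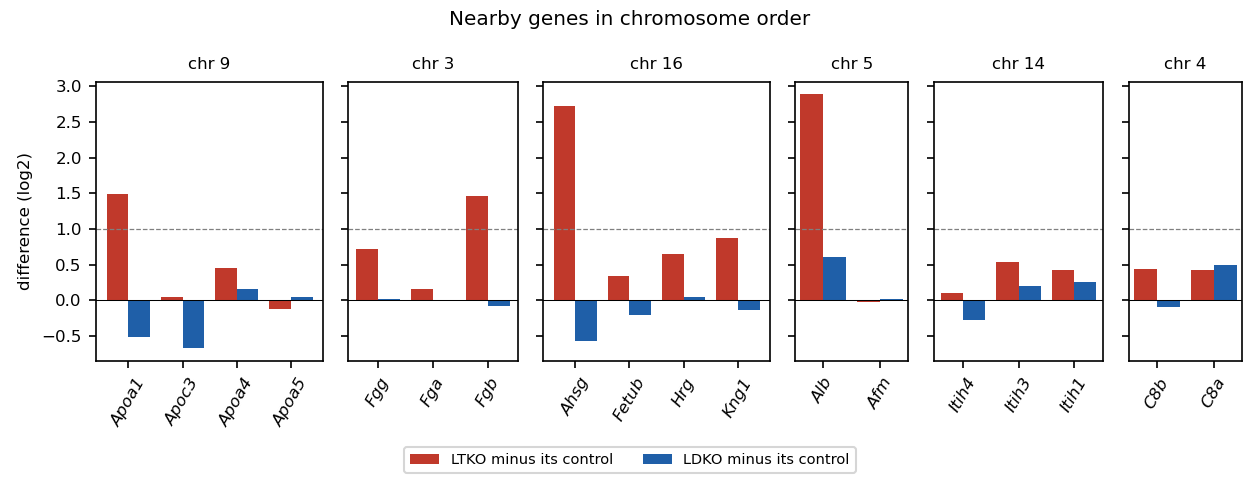
Log2 difference from the own control (y axis) in LTKO and LDKO for genes of 6 chromosomal groups, in chromosome order, with a dashed line at 2-fold. Apoa1, Fgb, Ahsg and Alb stand above the other genes of their groups in LTKO and lie between −0.56 and 0.60 in LDKO, while C8b and C8a were alike in LTKO.

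Further hepatocyte genes were set beside the members. Among 37 other secreted proteins, 5 passed 2-fold in LTKO, all of them upward, against 1.13% of all genes higher and 0.0361% lower. The median was 0.07, and LTKO was the highest array at 14 of the 37, against 21.7% of all genes. The 4 with the largest difference were the antitrypsin gene Serpina1c, with 6.81 in LTKO and 3.65 in its control, the pregnancy zone protein Pzp at 1.97, the iron hormone hepcidin (Hamp) at 1.63 and the insulin-responsive binding protein Igfbp1 at 1.48. Igfbp1 was 1.07 lower in the Irs1/2:FoxO1-flox control than in the Irs1/2-flox control, and LTKO was 0.55 above LDKO there. Serpina1 genes are near-identical copies, and Serpina1a, Serpina1b, Serpina1d and Serpina1e differed by −0.44, −0.05, −0.16 and −0.28.

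Among 31 hepatocyte enzymes and transporters, 6 passed 2-fold in LTKO, again all upward, against 1.13% of all genes higher and 0.0361% lower. The median was 0.36, and LTKO was the highest array at 17 of the 31, against 21.7% of all genes. The fatty acid hydroxylase Cyp4a14 was 6.67 in LTKO and 3.16 in its control, the glucuronosyltransferase Ugt2b1 differed by 1.84, the liver fatty acid binding protein Fabp1 by 1.57 and the uptake transporter Slco1b2 by 1.39. Tat, at 1.39, and Cyp2f2, at 1.07, completed the 6, and Cyp2f2 was higher still in LDKO. In all, 11 of the 31 were at least 1.5-fold higher, 1 was as much lower, Hal at −0.92, and 19 lay between. The 19 ran from Cyp27a1 at −0.36 to Cyp1a2 at 0.55. Named after their values were seen, Cyp3a11 differed by 0.25, Cyp2c29 by 0.36, the urea cycle gene Otc by −0.09 and Bhmt by 0.18. Of 13 hepatocyte transcription factors, Hnf4a differed by 1.01, with 6.18 in LTKO and 5.17 in its control, but was 0.44 above LDKO. Prox1, Foxa1 and Nr1i3 differed by 0.46, 0.41 and 0.27, and the list's median was 0.02. None of 9 Kupffer cell and liver endothelial markers was 2-fold higher, against 1.13% of all genes. Their median was 0.01, with Fcna at −0.67, Stab2 at −0.27 and a highest difference of 0.13. In LDKO the medians of the secreted proteins, the enzymes and the transcription factors were 0.04, 0.03 and 0.05. The genes of these lists past 2-fold in LDKO were Cyp2f2 at 2.84, with 8.83 in LDKO and 7.98 in LTKO, the acute phase gene Orm1 at 1.11, the tyrosine aminotransferase gene Tat at −1.18 and Fcna at −1.03.

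Markers of some other tissues were also high in the LTKO array. Among 14 epididymis markers 6 passed 2-fold upward in LTKO, against 1.13% of all genes. The median was 0.70, and Gpx5 was 8.28 in LTKO and 2.97 in its control. Lcn9, Defb48 and Lcn8 differed by 3.18, 2.58 and 1.67, and 3 of the 14 lay below the control. Among 13 sperm and testis markers 8 passed 2-fold upward, against the same 1.13%. The list's median was 1.42, with Adam5 at 3.06, Smcp with 6.17 in LTKO and 3.17 in its control, Tnp2 at 2.39 and Tnp1 at 2.08. The median level of this list was 5.84 in LTKO, 4.01 in its control, 4.03 in LDKO and 4.04 in the Irs1/2-flox control. Its summed linear signals were 1987, 1817, 1498 and 1527 in the same order, of which Odf1, at 10.40 in LTKO and 10.66 in its control, made the larger part in every array. In LDKO none of either list was 2-fold higher, against 0.334% of all genes. Intestinal epithelium, which also makes Apob, Apoa1 and Apoa4, had Vil1 at 1.30 and a median of 0.06 over 10 markers, with Lct at −0.22, Fabp6 at 0.21 and Mttp at 0.19. Vil1 was 5.17 in LTKO, 3.87 in its control and 4.59 in the Irs1/2-flox control. Of 9 kidney markers Lrp2 differed by 2.03, Cubn by 0.43, Miox by −0.38 and Slc5a2 by −0.37, and the median was 0.04. Lrp2 was 8.74 in LTKO, 6.72 in its control and 7.59 in the Irs1/2-flox control. The 7 exocrine pancreas markers had a median of −0.12, with Cel at −0.48, Cpb1 at −0.35, Prss2 at 0.22 and Try4 at −0.21. LTKO was the highest array for none of the 7, against 21.7% of all genes. The part of these cells in the values of the plasma protein genes was not tested.

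**Figure D4:**
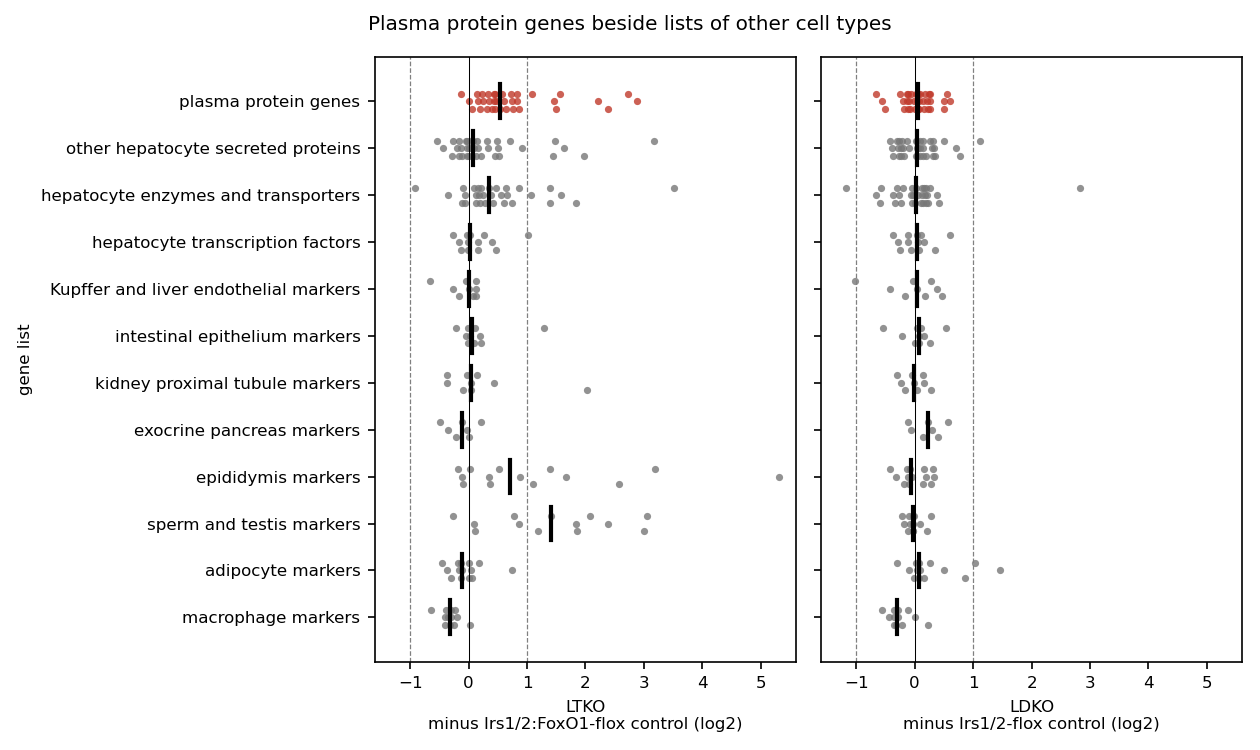
Log2 difference from the own control for LTKO on the left and LDKO on the right, with 1 point per gene, 1 row per gene list, a black bar at the median and dashed lines at 2-fold. In LTKO the medians are 0.53 for plasma protein genes, 0.70 for epididymis markers, 1.42 for sperm and testis markers and 0.36 for hepatocyte enzymes, while in LDKO they are 0.05, −0.07, −0.03 and 0.03.

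The plot of gene lists also holds the cells of the fat pad. The 14 adipocyte markers had a median of −0.12 in LTKO and 0.08 in LDKO, with adiponectin (Adipoq) at 10.35 in LTKO and 10.48 in its control, and 10.57 in LDKO and 10.49 in its control. Leptin (Lep), the glucose transporter Slc2a4, the adipogenic receptor Pparg and the lipid droplet protein Cidea differed by 0.74, −0.45, −0.36 and −0.29 in LTKO. In LDKO they differed by 0.85, 1.03, 0.05 and 1.46. The 12 macrophage markers had a median of −0.31 in LTKO and −0.30 in LDKO, and in LTKO Cd68 differed by −0.64, Csf1r and Itgam by −0.40 each and Cd14 by −0.38. The targeted genes do not check the deletion in this tissue: Irs1 was 7.09 in LTKO and 7.86 in its control, but 7.46 in LDKO and 6.96 in its control, so its differences of −0.77 and 0.50 ran in opposite directions, read from 1 of its 2 probes. Irs2 was 7.79 in LTKO and 7.93 in its control, and 7.62 in LDKO and 7.96 in its control. Foxo1 was 8.26 in LTKO and 8.37 in its control, and 8.02 in LDKO and 8.22 in its control. The medians of all probes were 4.69 in LTKO, 4.68 in its control, 4.73 in LDKO and 4.70 in its control. Any pair of arrays correlated across genes with a Pearson's r between 0.986 and 0.991.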

How the data were processed

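RNA was hybridised to Affymetrix whole-transcript arrays as biotin-labelled DNA, per the labels' protocols. The authors deposited log2 signals per probe made in Affymetrix Expression Console by RMA, per the submitters' processing notes. Neither versions nor the set of arrays normalized together is given in the sources used here. RMA compresses differences of dim probes.

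Of 41345 probes, 23521 had 1 gene symbol, 1814 several and 16010 none. Symbols came from the platform annotation, updated through gene identifiers with the GRCm38.p6 annotation for 23328 probes. A gene was its probe with the highest mean over the 4 arrays. No filter on low values was set: the mean of 7 of the 35 measured members reached the median gene (5.15), and that of 28 did not. The 11 lists of other genes hold 192 symbols, of which 169 were measured. The members and lists were chosen with earlier results of these data known. All members could be named. Of each list, up to the 4 genes with the largest LTKO difference were to be named, and further list genes were chosen after their values were seen.

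No test was possible with 1 array per group, so counts and medians stand beside those over all genes. The steps were tested on simulated data. Alternatives were other thresholds, a filter on the mean, averaging a gene's probes, a repeated quantile normalization, a loess curve (span 0.3) removed, the other control or the mean of both, and fewer members. Values were computed in Python 3.11.15 (pandas 2.3.3, numpy 2.4.6, statsmodels 0.14.6, scipy 1.17.1) and drawn with matplotlib 3.10.9.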

Additional observations from a re-analysis of the deposited data

Results flagged for a closer look

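In 5 genes the LTKO and LDKO differences from their own controls had opposite signs and were at least 2-fold apart. The share of all genes that met this rule was not counted. The signs were the same at 54.3% of members and at 49.4% of all genes, so opposite signs were common in both. With 1 array per group the difference between the lines was not tested. The LTKO difference minus the LDKO difference was 3.29 for Ahsg, 2.40 for Apob, 2.01 for Apoa1, 1.53 for Fgb and 1.00 for Kng1. For Fgb and Kng1 the LDKO part was −0.07 and −0.13, close to 0, while for Ahsg and Apoa1 it was −0.56 and −0.51.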

How the results depend on the processing

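The LTKO count of 8 members and the median of 0.53 were the same or moved little with a repeated quantile normalization, a loess curve removed, the other floxed control and the mean of both controls. The count became 16 at 1.5-fold and 4 at 3-fold. It was 2 of the 7 members whose mean reached the median gene. Without the members that other cells also make it was 5 of 27, or 18.5%, against 22.9% of all 35. The LDKO count of 0 became 1 at 1.5-fold, Alb. LTKO minus LDKO, with 6 members, had 15 at 1.5-fold and 2 after the filter, and its median of 0.42 became 0.60 after the filter. Of the 28 members highest in LTKO, 13 were at least 1.5-fold and 6 at least 2-fold above every other array, the second margin chosen after the data were seen, and 5 of the 7 that passed the filter were highest there. Averaging a gene's probes could change nothing, since each member has 1 probe. A median counted as moved past 0.148, the median absolute difference between the 2 controls over all genes. The changes came with other thresholds or with fewer genes counted, and what lay behind them was not tested. No setting reversed a median. No paired analysis was possible because each group has 1 array. Leaving out a replicate was not possible for the same reason. The number of arrays limits the precision, and differences of dim genes are compressed.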
